A study of Rattus norvegicus with 24 samples.

Results

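The antioxidant and glutathione genes are 40 genes named by symbol, taken from a list of pathway genes, out of 13458 symbols in an RNA-seq table of the tibialis anterior, a muscle at the front of the lower leg, of aged male Fischer 344 rats (23 ± 1 months). All 40 had a row in the table and all 40 passed the filter on low values. In 9 rats the left common peroneal nerve was silenced with tetrodotoxin (TTX), a sodium channel blocker given from an implanted pump, so that the left muscle fell into disuse. Left limbs were taken after 6 to 7 days of TTX (atrophy, n = 3), after 9 further days without TTX (recovery, n = 3), or after another 5 to 6 days of TTX that followed this recovery (repeated atrophy, n = 3). The untreated right limbs of the same 9 rats, pooled over the 3 stages, were the controls (n = 9), and 3 further rats had the surgery without TTX (sham, left and right limbs, n = 3 each). The study states that there was 1 sham rat for each stage, so that stage and animal cannot be told apart among them. Each sample is the muscle of 1 limb, so that every treated limb shares its animal with 1 control limb, and no limb was sampled before TTX. In whole muscle, fewer cells of a type and less RNA per cell cannot be told apart.

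These genes hold reactive oxygen species and oxidised protein thiols in check. Superoxide dismutases turn superoxide into hydrogen peroxide, which catalase, the glutathione peroxidases and the peroxiredoxins then remove, and the glutathione and thioredoxin cycles return those enzymes to their reduced state with electrons from NADPH. The transcription factor NRF2, encoded by Nfe2l2 and held back by KEAP1, is known to raise many of these genes through a short DNA motif called the antioxidant response element. Skeletal muscle makes superoxide in its mitochondria and at membrane oxidases, and oxidative stress is a well studied feature of unused muscle.

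Levels are counts per 1000000 reads (CPM), and sequencing depth inferred from the values was about 18900000 to 30900000 reads per sample (median 26100000), at which 1 read is worth 0.0324 to 0.0530 CPM. All 7 muscle fibre markers were present in every group, with a summed level of 148619 to 204132 CPM in the control limbs, 69514 to 158466 CPM after atrophy, 162538 to 178968 CPM after recovery and 92351 to 125133 CPM after repeated atrophy. None of the 7 alone was called (defined below) against control at any stage. Myh2 went the other way in the left limbs of atrophy animals 1 and 3, at 9041 and 11027 CPM against 1963 to 4544 CPM in the control limbs. A smaller share for such abundant genes lifts the CPM of the rest, and the median log2 fold change of all 14031 rows was 0.22, 0.02 and 0.20 when the atrophy, recovery and repeated atrophy limbs were set against control. Each call of a member against control is therefore given on CPM and again after rescaling the samples by a trimmed mean of log ratios, which put those medians at 0.00, 0.01 and -0.01. Changes not called, less abundant rows of a symbol, summed rows and other genes are on CPM alone where no rescaled value is printed. A gene is said to rise or fall, or is called, where the fold change was at least 1.2 and the adjusted p at most 0.05 in a limma fit on log2(CPM + 1) over all rows, a scale on which the changes of low genes are understated. The ± beside a log2 fold change is its SE.

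After repeated atrophy, thioredoxin (Txn1), glutathione reductase (Gsr), glutathione synthetase (Gss), the transferase gene Gstz1 and Nfe2l2 itself rose, while the microsomal transferase gene Mgst3, extracellular superoxide dismutase (Sod3) and the mitochondrial enzyme Sod2 fell. After atrophy 9 members rose and 3 fell on CPM (22.5% and 7.50% of the 40), where 20.3% of all rows rose and 2.33% fell. After recovery 3 rose and 4 fell (7.50% and 10.0%), where 4.4% and 3.33% of all rows did. After repeated atrophy 14 rose and 5 fell (35.0% and 12.5%), against 28.1% and 6.24% of all rows, and the shares that rose, which lie near the background, are no result about the members. Overlap between groups of limbs is given on CPM, and on the rescaled values Nfe2l2, Nqo1, Prdx6 and Msra overlapped with control after repeated atrophy, and Prdx6 and Gstz1 after atrophy. The members' median log2 fold change was 0.40, -0.06 and 0.37 for the 3 comparisons on CPM, and 0.07, -0.08 and 0.05 on the rescaled values.

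On the rescaled values 2 members rose and 4 fell after atrophy (background 4.57% and 5.13%), 4 rose and 4 fell after recovery (6.16% and 5.97%), and 6 rose and 6 fell after repeated atrophy (13.3% and 12%). With the animal as a block, no member was called after atrophy (0% of all rows, 2678 rows and 8 members at an unadjusted p under 0.05), none after recovery (0.0641% of all rows, 9 members at an unadjusted p under 0.05), and 16 after repeated atrophy (27.1%). With the animal as a random effect (correlation 0.108) the counts were 12, 7 and 21 (22.6%, 8.37% and 35.9% of all rows). The atrophy calls also depended on single animals: without the limbs of atrophy animal 1 no member was called (0.00715% of 13993 rows, 13 members at an unadjusted p under 0.05), without those of atrophy animal 2 19 were (34.6%), and without the right limb of atrophy animal 3 alone 20 were (28.7%). The left limb of atrophy animal 2 stood apart from the other atrophy limbs, with a fibre marker sum of 158466 CPM, within the control range, against 69514 and 88006 CPM, and with 25.6% of its CPM in its 10 highest rows against 13.0% and 15.6%. After recovery 1 member, Txnrd2, remained called without any 1 of the 3 recovery animals, and 3 members without repeated atrophy animal 2 or 3. After repeated atrophy the count was 12 without repeated atrophy animal 2. Here and below, counts without 1 animal that have no share of all rows beside them are no result about the members. Txn1, Gsr, Gss, Gstz1, Nfe2l2, Mgst3, Sod3 and Sod2 were the 8 members called there on CPM, on the rescaled values, with the block and without any 1 animal. The share of all rows that passed these same settings was not worked out, so the number 8 is no result about the members. With rescaling and the block together, Gss (adjusted p = 0.0522) and Gstz1 (adjusted p = 0.0559) were not called and the other 6 were. An animal was always left out with both of its limbs, and the adjusted p given below beside a lost call is the highest over these fits.

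**Figure D1:**
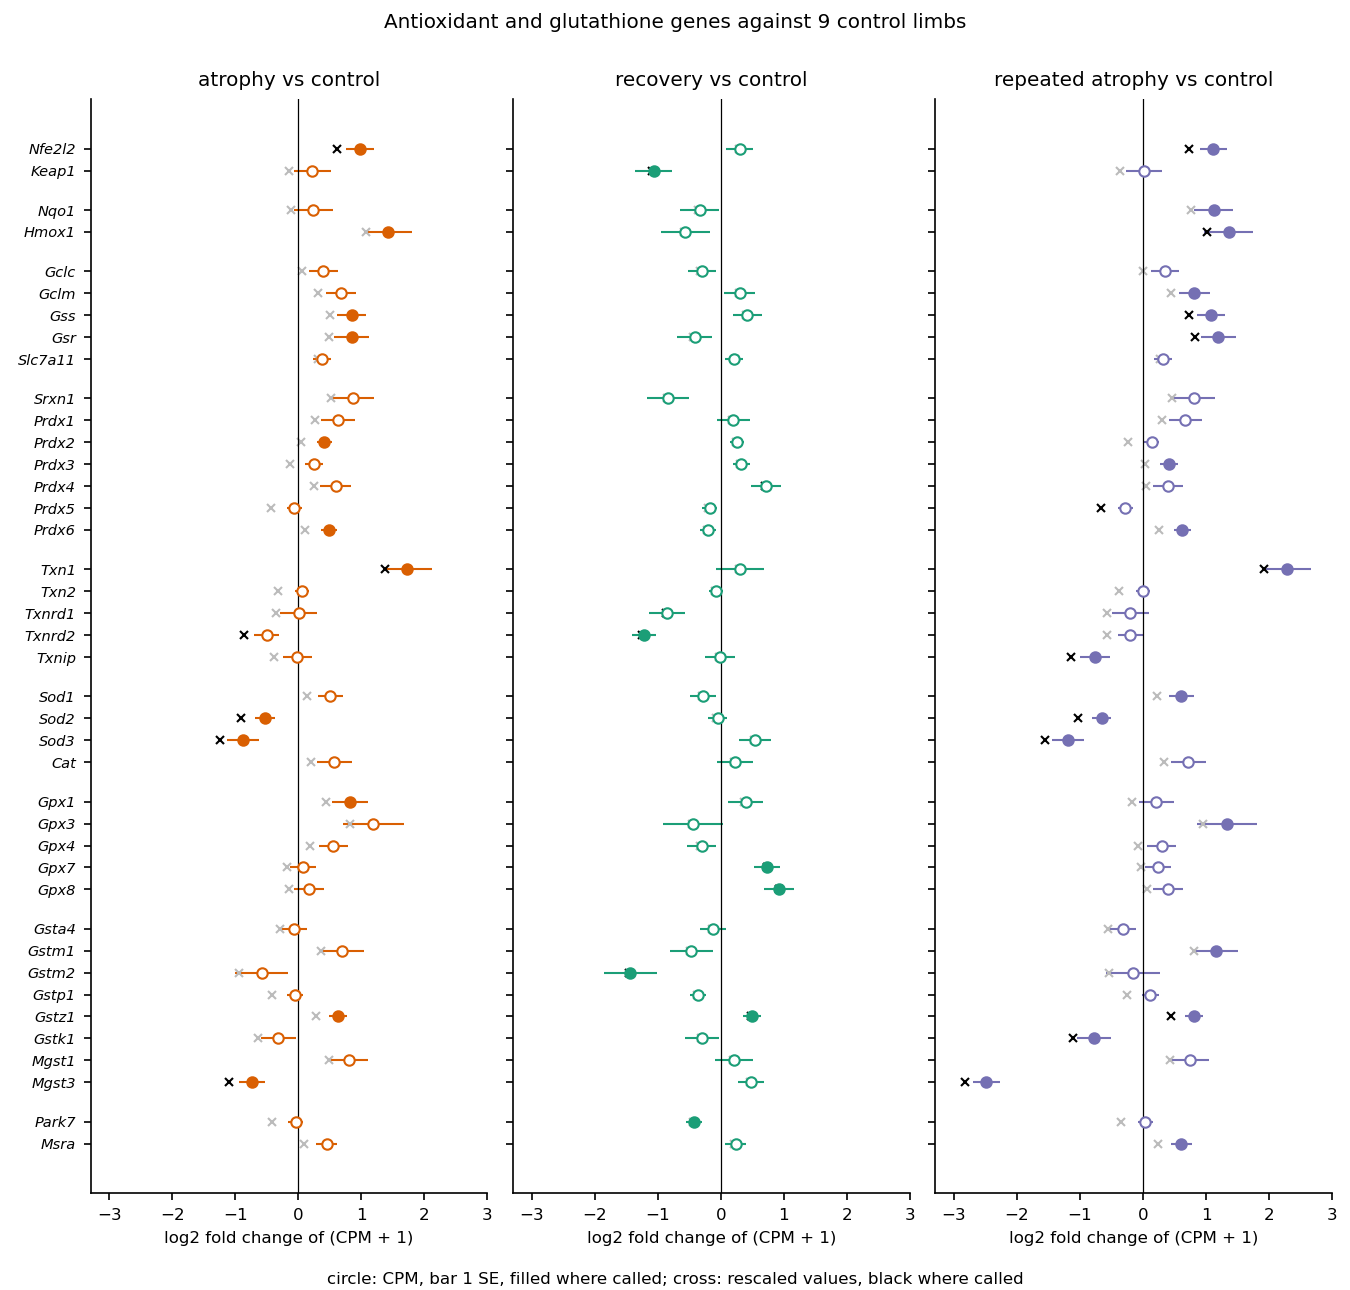
Log2 fold change of (CPM + 1) of each of the 40 genes against the 9 control limbs after atrophy, recovery and repeated atrophy (n = 3 each), grouped by role. Circles with bars of 1 SE are CPM, filled where called, and crosses are the rescaled values, black where called. Txn1 lies farthest right and Mgst3 farthest left after repeated atrophy, at 2.29 and -2.48.

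Among the regulators, Nfe2l2 (chromosome 3, 60594245 to 60621672, rn7) lay at 44.4 to 88.5 CPM (median 55.9) in the control limbs, at 158, 86.0 and 128 CPM after atrophy, 72.3, 65.4 and 89.3 CPM after recovery and 136, 157 and 108 CPM after repeated atrophy. All 3 repeated atrophy limbs lay above every control limb, while 1 of the 3 atrophy limbs lay among them. Its log2 fold change was 0.98 ± 0.22 (adjusted p = 0.00836) after atrophy and 1.11 ± 0.22 (adjusted p = 0.000921) after repeated atrophy, and it was called on the rescaled values in both, at 0.61 (adjusted p = 0.0372) and 0.74 (adjusted p = 0.0051). After recovery it was 0.30 and not called (adjusted p = 0.4). The atrophy call was lost without atrophy animal 1 (adjusted p = 0.145) and with a block for the animal (adjusted p = 0.178), while the repeated atrophy call was kept without any 1 animal. Keap1, which marks the NRF2 protein for degradation, was at 54.1 to 186 CPM (median 85.1) in the control limbs and at 43.4, 39.7 and 44.1 CPM after recovery, where no recovery limb reached the lowest control limb. It fell there by 1.06 on the log2 scale (SE 0.29, adjusted p = 0.0325), with -1.08 (adjusted p = 0.0181) on the rescaled values. That call was lost without recovery animal 1, 2 or 3, or repeated atrophy animal 2 or 3 (adjusted p up to 0.114) and with the block (adjusted p = 0.281). The right limbs of the recovery rats, at 64.1, 68.0 and 54.1 CPM of Keap1, were the lowest of the control limbs. Left minus right within these rats was -0.53 ± 0.24 SD on the log2 scale. The log2 fold changes of Keap1 after atrophy and repeated atrophy were 0.22 and 0.02, neither called.

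The promoters of members were searched for the core letters of the antioxidant response element, TGACNNNGC on either strand (GCNNNGTCA read from the other), in the 300 bases from 250 before to 50 after each start site (RefSeq, build GRCr8, a different build from the table). A window was found for 33 of the 40 members, and Hmox1, Gsr, Txnip, Prdx6, Sod3, Gpx8 and Msra had none. Of the 38 windows of these 33 genes, 9 held the letters (23.7%), against 12.1% of all 33469 windows and 14.5% of the 11046 windows of symbols in the expression table. The 9 were Gclm, Gstp1, Gstz1, Nfe2l2, Prdx1, Prdx4, Prdx5, Sod2 and Txnrd1, which include genes that rose, fell and were not called after repeated atrophy. The windows below are shown because their genes moved differently after repeated atrophy: Gclm, Nfe2l2 and Txn1 rose, Sod2 fell and Gstp1 was not called. Capitals mark the match, and the Txn1 window has none.
Gclm, chr2:213031885-213032184, plus strand: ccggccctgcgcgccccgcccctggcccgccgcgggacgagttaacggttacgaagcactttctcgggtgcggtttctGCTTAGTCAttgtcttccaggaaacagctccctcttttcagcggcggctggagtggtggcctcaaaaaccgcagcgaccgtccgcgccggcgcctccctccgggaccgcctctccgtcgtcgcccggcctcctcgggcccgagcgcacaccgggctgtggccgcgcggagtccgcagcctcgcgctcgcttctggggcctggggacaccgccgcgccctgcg
Nfe2l2, chr3:81028950-81029249, minus strand: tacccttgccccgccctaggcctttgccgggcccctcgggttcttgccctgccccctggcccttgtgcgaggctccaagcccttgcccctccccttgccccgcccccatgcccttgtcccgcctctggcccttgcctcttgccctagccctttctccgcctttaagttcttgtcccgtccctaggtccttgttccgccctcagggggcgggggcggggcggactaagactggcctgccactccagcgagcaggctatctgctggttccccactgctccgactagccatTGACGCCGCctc
Txn1, chr5:77519636-77519935, minus strand: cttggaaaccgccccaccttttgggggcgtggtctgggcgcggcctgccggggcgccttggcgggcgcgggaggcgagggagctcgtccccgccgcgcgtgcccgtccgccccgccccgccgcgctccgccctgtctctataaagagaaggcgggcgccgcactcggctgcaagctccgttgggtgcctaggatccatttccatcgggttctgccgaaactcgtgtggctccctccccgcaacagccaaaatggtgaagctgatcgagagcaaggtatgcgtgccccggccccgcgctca
Sod2, chr1:50050119-50050418, minus strand: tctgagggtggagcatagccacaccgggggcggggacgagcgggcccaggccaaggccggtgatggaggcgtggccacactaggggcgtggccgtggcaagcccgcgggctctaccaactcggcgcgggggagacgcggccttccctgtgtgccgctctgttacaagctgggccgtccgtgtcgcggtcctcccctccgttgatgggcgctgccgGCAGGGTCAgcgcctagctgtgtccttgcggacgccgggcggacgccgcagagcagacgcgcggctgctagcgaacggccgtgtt
Gstp1, chr1:210769656-210769955, minus strand: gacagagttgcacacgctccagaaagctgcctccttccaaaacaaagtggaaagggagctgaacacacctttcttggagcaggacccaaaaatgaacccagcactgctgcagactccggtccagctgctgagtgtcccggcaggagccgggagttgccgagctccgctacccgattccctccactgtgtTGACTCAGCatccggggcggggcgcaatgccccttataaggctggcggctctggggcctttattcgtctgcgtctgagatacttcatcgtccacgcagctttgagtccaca
The match began 172 bases before the start site in Gclm, 61 before it in Gstp1, 35 before it in Sod2 and 38 after it in Nfe2l2. Such a match is a description of the sequence, and binding was not measured.

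Hmox1, haem oxygenase 1, which breaks down haem to biliverdin, iron and carbon monoxide, had levels of 4.23 to 16.6 CPM (median 5.73) in the control limbs. It lay at 27.7, 20.9 and 15.4 CPM after atrophy, at 4.76, 3.93 and 4.91 CPM after recovery and at 35.1, 9.68 and 22.6 CPM after repeated atrophy. The treated and control limbs overlapped at every stage. Hmox1 rose on CPM after atrophy, by 1.42 ± 0.38 (adjusted p = 0.0165), and after repeated atrophy, by 1.36 ± 0.38 (adjusted p = 0.0108). The rescaled values were 1.08 (adjusted p = 0.0699), not called, and 1.02 (adjusted p = 0.0499), called. The atrophy call was lost without atrophy animal 1 (adjusted p = 0.181), and the repeated atrophy call lost without repeated atrophy animal 1 (adjusted p = 0.121). Nqo1, a quinone reductase that uses NADPH or NADH, was at 7.19 to 24.2 CPM (median 16.4) in the control limbs, and its 35.6, 27.9 and 43.2 CPM after repeated atrophy lay above all of them. It rose by 1.12 ± 0.31 (adjusted p = 0.0085), but was not called on the rescaled values, at 0.76 (adjusted p = 0.0519). Its call was lost without repeated atrophy animal 3 (adjusted p = 0.0561) and with the block (adjusted p = 0.0692). After atrophy and recovery its log2 fold changes were 0.24 and -0.34, not called.

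Of the 5 genes of glutathione synthesis and recycling, 2 rose after atrophy, none was called after recovery and 3 rose after repeated atrophy on CPM, where 20.3%, 4.4% and 28.1% of all rows rose. On the rescaled values 0, 0 and 2 rose (4.57%, 6.16% and 13.3%). Glutathione is built by the glutamate-cysteine ligase, with its catalytic subunit Gclc and modifier subunit Gclm, and by Gss, and Gsr returns its oxidised form to the reduced one. Gsr (chromosome 16, 58482506 to 58524910, rn7) was at 20.1 to 76.1 CPM (median 26.1) in the control limbs, where the highest value, the right limb of atrophy animal 3, stood apart from the next at 31.8 CPM. The treated limbs held 59.0, 45.5 and 55.6 CPM after atrophy, 20.8, 16.9 and 28.6 CPM after recovery and 61.0, 64.5 and 79.7 CPM after repeated atrophy. Because of that right limb neither atrophy nor repeated atrophy was free of overlap with control, although every other control limb lay below all 6 TTX limbs of the 2 stages. Gsr rose by 0.84 ± 0.27 (adjusted p = 0.0345) after atrophy, a call not made on rescaled values (0.48, adjusted p = 0.184), and by 1.2 ± 0.27 (adjusted p = 0.0029) after repeated atrophy, called also rescaled, at 0.82 (adjusted p = 0.0121), and with the block (adjusted p = 0.0145). The atrophy call was lost without atrophy animal 1, recovery animal 1, 2 or 3, or repeated atrophy animal 2 (adjusted p up to 0.235).

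Gss went from 4.45 to 8.85 CPM (median 6.42) in the control limbs to 15.3, 7.30 and 16.4 CPM after atrophy and 14.2, 14.9 and 14.8 CPM after repeated atrophy. The repeated atrophy limbs were close together and above every control limb, whereas atrophy animal 2 was among the controls. The rise was 0.84 ± 0.23 (adjusted p = 0.0163) after atrophy, with 0.50 (adjusted p = 0.0749) on the rescaled values, a call lost without atrophy animal 1 or 3 (adjusted p up to 0.182). After repeated atrophy it was 1.08 ± 0.23 (adjusted p = 0.00165), with 0.73 (adjusted p = 0.00497) on the rescaled values. Gclm, at 11.3 to 31.5 CPM (median 14.3) in the control limbs and 32.7, 30.8 and 25.2 CPM after repeated atrophy, overlapped with control and rose by 0.82 ± 0.24 (adjusted p = 0.0142), with 0.45 (adjusted p = 0.163) on the rescaled values. That call was lost without repeated atrophy animal 1 or 2 (adjusted p up to 0.0921). Gclc was not called at any stage, with log2 fold changes of 0.40, -0.30 and 0.35. Slc7a11, the cystine importer that feeds this synthesis, was at 0 in 7 of the 9 control limbs and no higher than 0.952 CPM in any limb, and was not called.

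In the thioredoxin system, Txn1 (chromosome 5, 72712334 to 72724565, rn7), the cytosolic thioredoxin that reduces peroxiredoxins and other proteins, had the largest rise of the 40 genes on CPM in both TTX stages. It was at 10.4 to 39.1 CPM (median 14.2) in the control limbs, 114, 42.1 and 49.2 CPM after atrophy, 22.8, 14.5 and 33.8 CPM after recovery and 107, 105 and 68.9 CPM after repeated atrophy. All 6 limbs of the 2 TTX stages lay above every control limb, and all 3 recovery limbs lay among the controls. The rise was 1.73 ± 0.38 (adjusted p = 0.00845) after atrophy and 2.29 ± 0.38 (adjusted p = 0.000344) after repeated atrophy, called on the rescaled values too, at 1.37 (adjusted p = 0.0229) and 1.92 (adjusted p = 0.000625). The atrophy call was lost without atrophy animal 1 (adjusted p = 0.151) and with the block (adjusted p = 0.228), and that after repeated atrophy was kept with the block (adjusted p = 0.00653) and without any 1 animal. Txnip, a protein that binds thioredoxin and restrains glucose uptake, went the other way after repeated atrophy, at 520.1, 573 and 635 CPM against 714 to 1554 CPM (median 926) in the control limbs. Its 3 repeated atrophy limbs lay below every control limb, and it fell by 0.76 on the log2 scale (SE 0.24, adjusted p = 0.0186), with -1.14 (adjusted p = 0.00258) on the rescaled values. The call was lost without repeated atrophy animal 1 or 2 (adjusted p up to 0.0889) and with the block (adjusted p = 0.0817). After atrophy and recovery Txnip had log2 fold changes of -0.02 and -0.01 against the pooled control limbs, not called. The right limbs of the atrophy rats, at 926, 1554 and 1395 CPM, included the 2 highest of the 9, and each atrophy limb, at 728, 1399 and 877 CPM, was below the right limb of its own animal. Left minus right was -0.39 ± 0.26 SD on the log2 scale in the atrophy rats and -0.51 ± 0.41 SD in the repeated atrophy rats, lower on the left in 3 of 3 at both stages, and with the block the atrophy value was not called (adjusted p = 0.314).

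The mitochondrial pair behaved apart from Txn1. Txn2, the mitochondrial thioredoxin, had log2 fold changes of 0.05, -0.07 and 0.00 at the 3 stages on CPM and was not called. Txnrd2, the reductase that serves it, was at 19.8 to 41.4 CPM (median 29.0) in the control limbs and 13.3, 8.76 and 12.0 CPM after recovery, where every recovery limb lay below every control limb. It fell there by 1.22 on the log2 scale (SE 0.20, adjusted p = 0.00241), with -1.24 (adjusted p = 0.00395) on the rescaled values, a call kept without any 1 animal and not made with the block (adjusted p = 0.0556). After atrophy Txnrd2 was called on the rescaled values alone (-0.86, adjusted p = 0.0292; CPM -0.51, adjusted p = 0.0694), and after repeated atrophy it was not called (-0.20).

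Txnrd1, the cytosolic thioredoxin reductase, has 4 rows in the table that differ in length or span, and these rows moved differently. The row with the highest mean (3450 bases) was at 26.7 to 99.1 CPM (median 43.0) in the control limbs, 27.6, 55.9 and 52.7 CPM after atrophy, 21.4, 25.8 and 23.4 CPM after recovery and 32.1, 35.9 and 46.0 CPM after repeated atrophy. It was not called on CPM at any stage and fell after recovery on the rescaled values (-0.87, adjusted p = 0.0494), where all 3 limbs lay below every control limb. The row of 3525 bases kept a near fixed ratio to it (0.334 to 0.349 in all 24 samples). The rows of 3342 bases rose instead, the shorter span from a mean of 18.4 CPM in control to 36.1 after atrophy and 39.9 after repeated atrophy (log2 fold changes 1.04 and 1.16, adjusted p = 0.0286 and 0.00965), and the longer span from 15 CPM to 33.0 and 34.8 (1.25 and 1.28, adjusted p = 0.0290 and 0.0169). With its rows summed Txnrd1 was not called against control after either TTX stage (0.51 and 0.46). How reads were divided among such rows is not given in the sources used here.

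**Figure D2:**
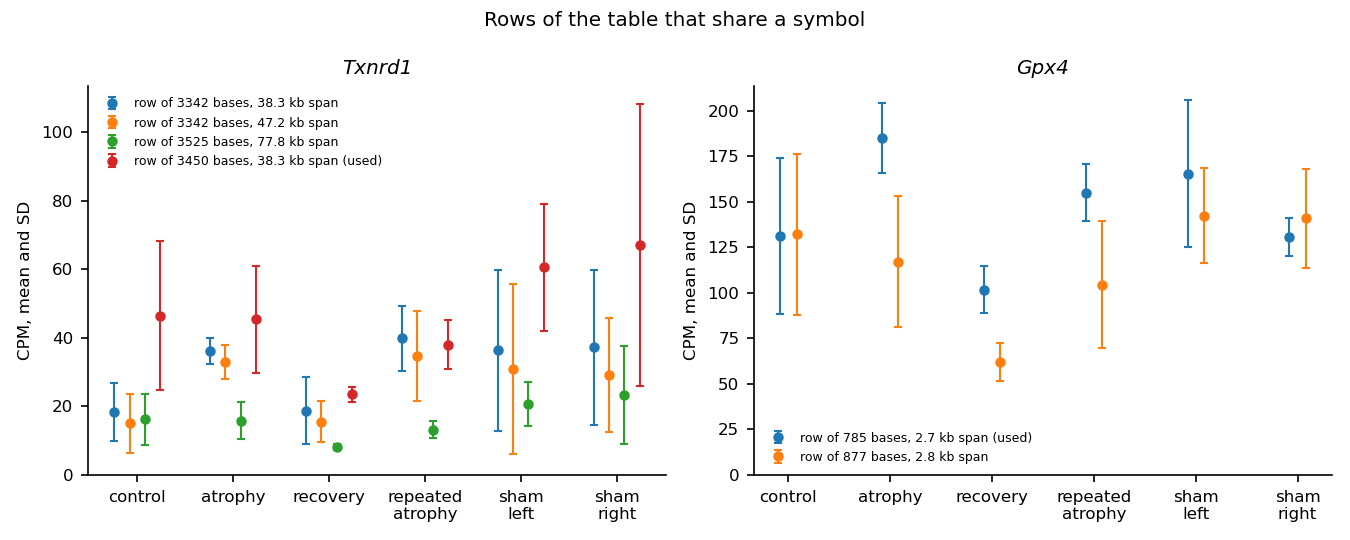
CPM (mean and SD) of the rows that share the symbol Txnrd1 (4 rows) or Gpx4 (the 2 rows above 1 CPM) in the 6 groups (control n = 9, others n = 3). The Txnrd1 rows of 3342 bases are higher in both TTX stages than in control, while the rows of 3450 and 3525 bases are not, and the Gpx4 rows, alike in control, part after atrophy, recovery and repeated atrophy.

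Peroxiredoxins are thiol enzymes that remove peroxides, and sulfiredoxin (Srxn1) repairs them when they are overoxidised. Of these 7 genes 2 rose after atrophy, none was called after recovery and 2 rose after repeated atrophy on CPM, shares near the 20.3% and 28.1% of all rows that rose, and none of those genes was called on the rescaled values. Prdx6, which acts on phospholipid peroxides, was at 55.1 to 85.2 CPM (median 66.8) in the control limbs, 98.8, 94.2 and 98.3 CPM after atrophy, 59.9, 53.5 and 67.7 CPM after recovery and 105, 100.1 and 118 CPM after repeated atrophy. All 6 limbs of the TTX stages exceeded every control limb, with a rise of 0.48 ± 0.13 (adjusted p = 0.0168) and 0.63 ± 0.13 (adjusted p = 0.00159). After rescaling these became 0.11 (adjusted p = 0.527) and 0.25 (adjusted p = 0.0768), so the direction was kept and the call was not. The atrophy call on CPM was lost without atrophy animal 1 (adjusted p = 0.156). Prdx2, a cytosolic member, rose after atrophy by 0.41 ± 0.12 (adjusted p = 0.0211), with 0.04 (adjusted p = 0.872) on the rescaled values, a call lost without atrophy animal 1 or 3 (adjusted p up to 0.177). The mitochondrial Prdx3 rose after repeated atrophy, by 0.42 ± 0.14 (adjusted p = 0.0279), with 0.04 (adjusted p = 0.897) on the rescaled values. Its call was lost without recovery animal 2, or repeated atrophy animal 2 or 3 (adjusted p up to 0.175) and with the block (adjusted p = 0.0839). Prdx5, which is found in several organelles, was called on the rescaled values after repeated atrophy, at -0.66 (adjusted p = 0.00862), with -0.28 on CPM.

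Srxn1 was not called against control at any stage, and its values varied widely within groups, the control limbs included. It was at 9.62 to 36.8 CPM (median 13.0) in the control limbs, 18.3, 30.1 and 33.3 CPM after atrophy, 7.59, 4.83 and 11 CPM after recovery and 43.2, 20.6 and 18.2 CPM after repeated atrophy. The highest control limb, again the right limb of atrophy animal 3, lay above every atrophy limb. Its log2 fold changes were 0.87 ± 0.33 (adjusted p = 0.0685), -0.83 ± 0.33 (adjusted p = 0.128) and 0.81 ± 0.33 (adjusted p = 0.0684). Prdx1, also cytosolic, had log2 fold changes of 0.63, 0.20 and 0.67, not called. Prdx4, which acts in the endoplasmic reticulum, was at 5.26 to 12.2 CPM (median 7.68) in the control limbs and 14.1, 10.9 and 15 CPM after recovery, and rose there on the rescaled values (0.71, adjusted p = 0.0447; CPM 0.72, adjusted p = 0.0703).

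**Figure D3:**
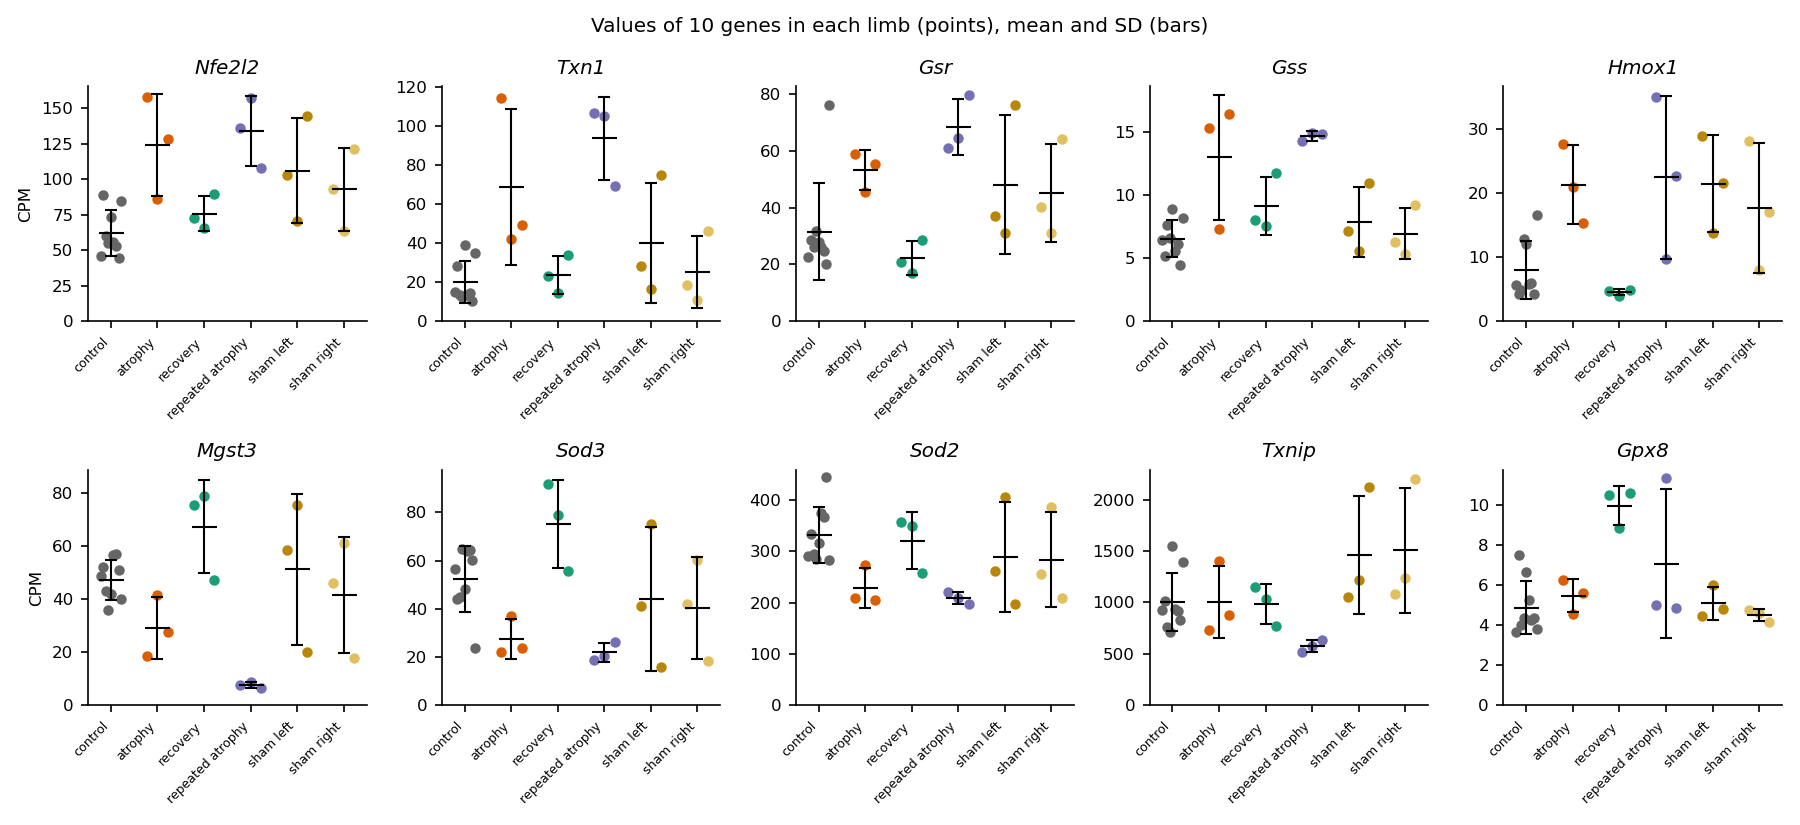
CPM of 10 genes in each limb (points) with the mean and SD of each group (bars), for 9 control limbs and 3 limbs in each other group; with every axis from 0. The repeated atrophy limbs of Txn1, Gss and Nfe2l2 lie above the control limbs and those of Mgst3, Sod2 and Txnip below them, while single control or sham limbs of Gsr, Hmox1 and Sod3, and sham limbs of Txn1, Nfe2l2 and Sod2, reach the repeated atrophy values.

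Sod2 and Sod3 fell in both TTX stages. Sod2, the mitochondrial enzyme, was at 284 to 446 CPM (median 316) in the control limbs, 209, 274 and 205 CPM after atrophy, 357, 349.8 and 257 CPM after recovery and 220.2, 209 and 198 CPM after repeated atrophy. The limbs of both TTX stages lay below every control limb, and those of recovery overlapped with them. Sod2 fell after atrophy by 0.53 on the log2 scale (SE 0.15, adjusted p = 0.0209), with -0.91 (adjusted p = 0.0196) on the rescaled values, a call lost without atrophy animal 1 or 3 (adjusted p up to 0.171). After repeated atrophy it fell by 0.65 on the log2 scale (SE 0.15, adjusted p = 0.00341), with -1.03 (adjusted p = 0.00202) on the rescaled values. Sod3, the secreted enzyme of the extracellular space, was at 23.7 to 64.9 CPM (median 56.5) in the control limbs, 21.9, 36.8 and 23.7 CPM after atrophy, 91.6, 78.8 and 55.5 CPM after recovery and 18.8, 20.3 and 26.3 CPM after repeated atrophy. The lowest control limb was the right limb of atrophy animal 3, and the other 8, at 44.1 CPM or more, lay above all 6 TTX limbs. Sod3 fell after atrophy by 0.89 on the log2 scale (SE 0.25, adjusted p = 0.0202), with -1.25 (adjusted p = 0.0207) on the rescaled values, a call lost without atrophy animal 1 (adjusted p = 0.204). After repeated atrophy it fell by 1.18 on the log2 scale (SE 0.25, adjusted p = 0.00183), with -1.55 (adjusted p = 0.00124) on the rescaled values. Its recovery value of 0.54 was not called (adjusted p = 0.189).

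Sod1, the cytosolic enzyme, rose on CPM after repeated atrophy, at 258, 173 and 172 CPM against 102 to 208 CPM (median 117) in the control limbs, with overlap. The rise was 0.61 ± 0.20 (adjusted p = 0.0261), and it was not called on the rescaled values, at 0.23 (adjusted p = 0.407). The CPM call was lost without repeated atrophy animal 1, 2 or 3 (adjusted p up to 0.154) and with the block (adjusted p = 0.0588). Cat, the peroxisomal catalase, was at 148 to 529.7 CPM (median 185) in the control limbs and 377, 358 and 393 CPM after repeated atrophy. It was not called against control at any stage (0.57, 0.23 and 0.72 ± 0.28, adjusted p = 0.0555), but with the animal as a block the repeated atrophy value was (adjusted p = 0.0462). There the left limb exceeded the right by 0.54 to 1.12 on the log2 scale in each of those 3 animals.

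Glutathione peroxidases reduce peroxides with glutathione. Gpx1, the cytosolic form, rose after atrophy, at 307, 91.1 and 223 CPM against 58.5 to 158 CPM (median 106) in the control limbs, by 0.82 ± 0.28 (adjusted p = 0.0432). Atrophy animal 2 lay below 8 of those 9 limbs, and the gene was not called on the rescaled values, at 0.44 (adjusted p = 0.295). On CPM the call was lost without atrophy animal 1 or 3, recovery animal 2 or 3, or repeated atrophy animal 1, 2 or 3 (adjusted p up to 0.385). Gpx3, the secreted plasma form, ran from 119.7 to 1015 CPM (median 263) in the control limbs to 635, 980.2 and 947 CPM after repeated atrophy. The groups overlapped, and the rise of 1.33 ± 0.48 (adjusted p = 0.0387) was not called on the rescaled values, at 0.95 (adjusted p = 0.116). Its call was lost without recovery animal 1 or 2, or repeated atrophy animal 1, 2 or 3 (adjusted p up to 0.184) and kept with the block (adjusted p = 0.0153). Gpx4, which protects membrane lipids, was not called on its most abundant row (0.55, -0.30 and 0.30). When the animal was blocked it was called after repeated atrophy, at 0.64 (adjusted p = 0.0141) on CPM and not on the rescaled values (adjusted p = 0.229), and the left limb exceeded the right by 0.23 to 0.91 on the log2 scale in those 3 animals. The row of 877 bases, at a mean of 132 CPM in control and 62.0 CPM after recovery, fell there by 1.02 on the log2 scale (adjusted p = 0.0349) and was not called after atrophy or repeated atrophy (-0.14 and -0.31). With its 3 rows summed Gpx4 fell after recovery by 0.67 on the log2 scale (adjusted p = 0.00692).

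Gpx7 and Gpx8, which work in the endoplasmic reticulum where proteins fold, rose after recovery and were not called against control at the other stages. Gpx8 was at 3.68 to 7.50 CPM (median 4.33) in the control limbs and 10.5, 8.84 and 10.6 CPM after recovery, and Gpx7 at 1.06 to 2.96 CPM (median 1.84) and 4.00, 3.72 and 3.84 CPM. In both genes every recovery limb lay above every control limb. The sham left limbs of Gpx7, at 3.14, 3.01 and 3.57 CPM, did so as well. Left minus right for Gpx7 was 0.46 ± 0.32 SD on the log2 scale in the sham rats and 0.69 ± 0.13 SD in the recovery rats. The rises were 0.93 ± 0.24 (adjusted p = 0.0234) and 0.74 ± 0.20 (adjusted p = 0.0357), with 0.92 (adjusted p = 0.0128) and 0.74 (adjusted p = 0.0209) on the rescaled values. The call of Gpx8 was lost without recovery animal 1, 2 or 3 (adjusted p up to 0.136), and that of Gpx7 lost without atrophy animal 1, or recovery animal 1, 2 or 3 (adjusted p up to 0.153). The 5 fibroblast markers moved with the recovery limbs: their summed level was 194 to 528 CPM in the control limbs and 1022 to 1918 CPM after recovery, 4 of the 5 were called higher (all 5 rescaled) and none was at 0. Of the 6 macrophage and leukocyte markers 2 were called higher there (5 rescaled), with a summed level of 29.0 to 96.3 CPM in control and 75.7 to 151 CPM after recovery, and none was at 0. Their part in the values of Gpx7, Gpx8 and Prdx4 was not tested.

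Glutathione transferases join glutathione to other molecules. Of the 8 in the set, 1 rose and 1 fell on CPM after atrophy (20.3% and 2.33% of all rows). After recovery 1 rose and 1 fell (4.4% and 3.33%), and after repeated atrophy 2 rose and 2 fell (28.1% and 6.24%). Mgst3 (chromosome 13, 79526541 to 79547357, rn7), a membrane transferase and peroxidase, had the largest change of the 40 on CPM after repeated atrophy. It was at 35.7 to 57.0 CPM (median 48.8) in the control limbs, 18.4, 41.4 and 27.5 CPM after atrophy, 75.6, 78.9 and 47.0 CPM after recovery and 7.75, 8.65 and 6.37 CPM after repeated atrophy. The repeated atrophy limbs lay far below every other TTX or control limb, and the recovery limbs lay among or above the controls. Mgst3 fell after atrophy by 0.74 on the log2 scale (SE 0.21, adjusted p = 0.0191), with -1.10 (adjusted p = 0.0207) on the rescaled values, a call lost without atrophy animal 1 or 3 (adjusted p up to 0.268). After repeated atrophy it fell by 2.48 on the log2 scale (SE 0.21, adjusted p = 4.90e-06), with -2.83 (adjusted p = 1.28e-05) on the rescaled values. Gstk1, a mitochondrial and peroxisomal transferase, was at 4.81, 6.21 and 7.33 CPM after repeated atrophy and at 7.80 to 17.1 CPM (median 11.4) in the control limbs, with no overlap. It fell by 0.78 on the log2 scale (SE 0.27, adjusted p = 0.0348), with -1.11 (adjusted p = 0.00815) on the rescaled values, a call lost without repeated atrophy animal 1, 2 or 3 (adjusted p up to 0.178).

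Gstz1, which acts in tyrosine breakdown, was the 1 member that rose on CPM at all 3 stages. It lay at 11.6 to 14.8 CPM (median 13.0) in the control limbs, 24, 16.3 and 22.8 CPM after atrophy, 19, 17.7 and 19.6 CPM after recovery and 19.6, 26.6 and 25.1 CPM after repeated atrophy, each stage wholly above control. The rises were 0.63 ± 0.14 (adjusted p = 0.00915), 0.49 ± 0.14 (adjusted p = 0.0438) and 0.81 ± 0.14 (adjusted p = 0.000522), with rescaled values of 0.28 (adjusted p = 0.15), 0.48 (adjusted p = 0.0184) and 0.45 (adjusted p = 0.0113). The atrophy call was lost without atrophy animal 1 (adjusted p = 0.14). The recovery call was lost without atrophy animal 3, recovery animal 1, 2 or 3, or repeated atrophy animal 2 or 3 (adjusted p up to 0.207). Gstm1 rose on CPM after repeated atrophy, by 1.16 ± 0.35 (adjusted p = 0.0149), with 0.81 (adjusted p = 0.0631) on the rescaled values. Its call was lost without repeated atrophy animal 1 or 3 (adjusted p up to 0.0728) and with the block (adjusted p = 0.0708). Gstm2, of the same mu class, was at 49.0 to 179 CPM (median 112) in the control limbs and 36.8, 31.1 and 40.0 CPM after recovery, below all of them. It fell there by 1.44 on the log2 scale (SE 0.42, adjusted p = 0.0447), with -1.46 (adjusted p = 0.0389) on the rescaled values. That call was kept in 1 of the 9 fits that left out 1 animal, the fit without atrophy animal 2 (adjusted p up to 0.142 in the others). The right limbs of the recovery rats, at 49.0, 66.5 and 57.6 CPM of Gstm2, were the lowest of the control limbs. Left minus right within these rats was -0.66 ± 0.36 SD on the log2 scale. Gsta4, Gstp1 and Mgst1 were not called at any stage, with log2 fold changes after repeated atrophy of -0.32, 0.12 and 0.74. Mu class genes are close copies of each other, and whether reads were shared between Gstm1 and Gstm2 was not tested, so their single values are uncertain.

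Of the genes that repair or guard oxidised proteins, Msra, a methionine sulfoxide reductase, rose after repeated atrophy, at 24.6, 26.0 and 31.0 CPM against 11.9 to 20.7 CPM (median 18.6) in the control limbs, with no overlap. The rise was 0.61 ± 0.17 (adjusted p = 0.0103), with 0.25 (adjusted p = 0.303) on the rescaled values, and the call was lost without repeated atrophy animal 2 or 3 (adjusted p up to 0.0906). Park7, the redox-sensitive protein DJ-1, was at 318, 305 and 332 CPM after recovery, below the 382 to 478 CPM (median 424) of the control limbs. It fell by 0.43 on the log2 scale (SE 0.12, adjusted p = 0.0426), but was not called on the rescaled values, at -0.45 (adjusted p = 0.0713), or with its 6 rows summed, at -0.29 (adjusted p = 0.13). The call was lost without atrophy animal 1, recovery animal 1, 2 or 3, or repeated atrophy animal 2 or 3 (adjusted p up to 0.188). Less abundant rows of Park7 moved otherwise on CPM, the only scale on which they are given here. The row of 924 bases, at a mean of 32.3 CPM in control, rose after recovery (0.92, adjusted p = 0.0283) and repeated atrophy (0.72, adjusted p = 0.0281), that of 1054 bases (1.58 CPM in control) rose after atrophy (1.27, adjusted p = 0.0332) and repeated atrophy (1.29, adjusted p = 0.0203), and that of 1419 bases (2.34 CPM in control) fell after repeated atrophy (-0.96, adjusted p = 0.00223).

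The stages were also set against each other, which asks whether the genes returned when TTX ended and moved again when it came back. Between recovery and atrophy 2 members were higher and 9 lower on CPM (background 3.34% and 14.5%), and 4 higher and 3 lower on the rescaled values (5.58% and 4.93%). Hmox1, Srxn1 and Gsr were lower in recovery on both scalings, with log2 fold changes on CPM of -1.98 ± 0.47 (adjusted p = 0.0119), -1.70 ± 0.41 (adjusted p = 0.0128) and -1.26 ± 0.34 (adjusted p = 0.0189). Sod3 and Mgst3 were higher, by 1.43 ± 0.31 (adjusted p = 0.00898) and 1.22 ± 0.26 (adjusted p = 0.0082), and Gpx7 and Gpx8 on the rescaled values, at 0.92 (adjusted p = 0.0232) and 1.07 (adjusted p = 0.0199). Keap1, Txn1, Txnrd2, Prdx6, Sod1 and Gpx4 were lower on CPM alone. This comparison is between different animals, and with the block no member was called (0.0143% of all rows, 4 members at an unadjusted p under 0.05). Without recovery animal 1 or 2 the count was 1, and without atrophy animal 1 it was 5. The calls of Hmox1 and Gsr were lost without atrophy animal 1, recovery animal 1 or recovery animal 2, that of Srxn1 without recovery animal 1 or 2, that of Sod3 without recovery animal 1 and that of Mgst3 without recovery animal 2 (adjusted p up to 0.0989).

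Between repeated atrophy and recovery 14 members were higher and 3 lower on CPM (background 21% and 6.29%), and 7 were higher and 7 lower on the rescaled values (10.5% and 11.2%). Called higher on both were Gsr (1.61 ± 0.34, adjusted p = 0.00334), Txn1 (1.99 ± 0.47, adjusted p = 0.00612), Hmox1 (1.92 ± 0.47, adjusted p = 0.00729), Srxn1 (1.64 ± 0.41, adjusted p = 0.00791), Gstm1 (1.62 ± 0.42, adjusted p = 0.00993), Nqo1 (1.46 ± 0.37, adjusted p = 0.00902) and Prdx6 (0.83 ± 0.16, adjusted p = 0.00233). Called lower on both were Mgst3 (-2.96 ± 0.26, adjusted p = 1.02e-05), Sod3 (-1.73 ± 0.31, adjusted p = 0.00165) and Sod2 (-0.60 ± 0.19, adjusted p = 0.0241). Nfe2l2, Keap1, Txnrd2, Sod1, Gpx3, Gstp1 and Park7 were higher on CPM alone, and Txnip, Prdx2, Gpx7 and Gpx8 lower on the rescaled values alone. With the block 1 member, Mgst3, was called (0.0855% of all rows; adjusted p = 0.0278), and without recovery animal 2 or 1 the count was 7 or 10. Among the 10 genes called on both scalings, Srxn1 and Nqo1 were lost without recovery animal 2, Gstm1 without recovery animal 1 or 2, and Sod2 without recovery animal 1 or 2 or repeated atrophy animal 2 or 3 (adjusted p up to 0.11). Both comparisons share the recovery limbs.

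**Figure D4:**
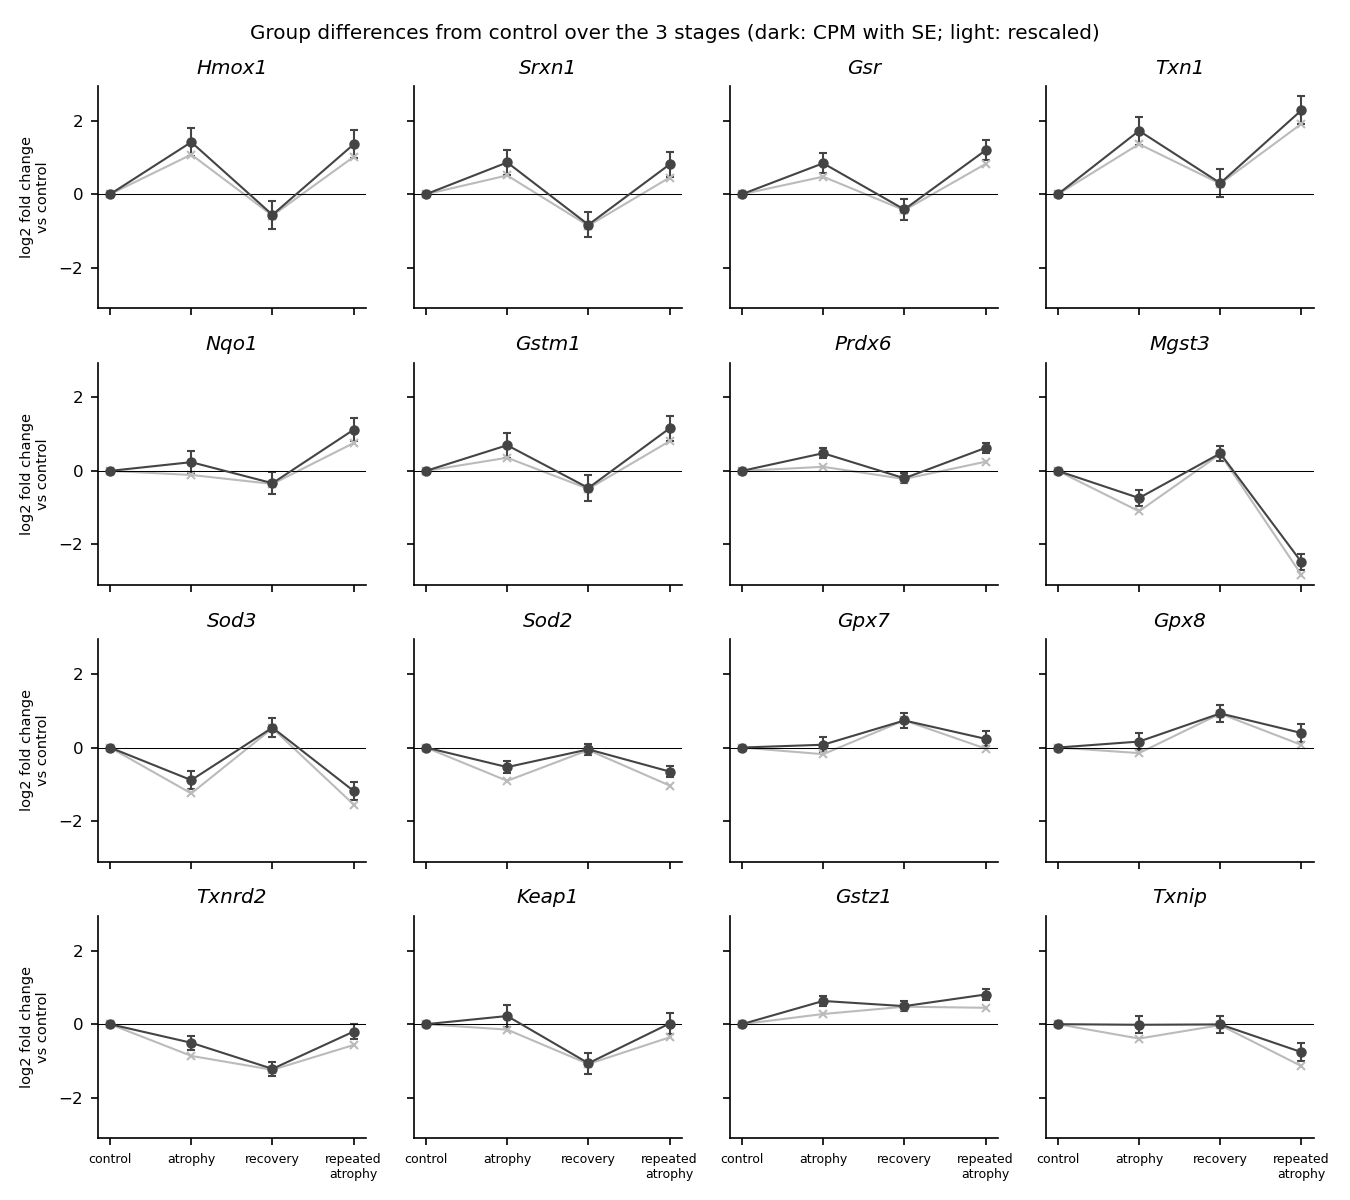
Log2 fold change against the 9 control limbs (set to 0) after atrophy, recovery and repeated atrophy for 16 genes, on CPM with SE (dark) and rescaled (light). The lines join groups of different animals. Hmox1, Srxn1, Gsr and Txn1 are high in both TTX stages, Mgst3, Sod3 and Sod2 are low, and Gpx7, Gpx8, Keap1 and Txnrd2 lie farther from control after recovery than at the other stages.

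Between repeated atrophy and atrophy, which both ended under TTX, 1 member was called on CPM (background 0.0356%). This was Mgst3, with a log2 fold change of -1.75 ± 0.26 (adjusted p = 0.0181) and no overlap between the 2 groups. It was not called on the rescaled values, where no row was (0%; -1.73, adjusted p = 0.104) or with the block (adjusted p = 0.552). The call was lost without atrophy animal 2 or 3, recovery animal 1, or repeated atrophy animal 2 or 3 (adjusted p up to 0.198). The difference between the 2 stages was not called for Txn1 (0.56 ± 0.47, adjusted p = 0.985), Nqo1 (0.88 ± 0.37, adjusted p = 0.711) or Txnip (-0.74 ± 0.29, adjusted p = 0.648).

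The limbs that never had TTX were not alike, which touches every comparison with them. In the right limb of atrophy animal 3, Gsr (76.1 CPM), Srxn1 (36.8), Cat (529.7), Gpx3 (1015), Txnrd1 (99.1) and Keap1 (186) were the highest and Sod3 (23.7) the lowest of the 9 control limbs. That limb was the highest of the 9 in 12 members, and the right limb of atrophy animal 2 in 15. Over all rows these limbs were the highest in 24.8% and 22.9%. Among the sham rats, which had no TTX, both limbs of sham animal 3 lay outside the range of the 9 control limbs in 17 members above and 6 below, where 20.2% and 4.05% of all rows did. Its left and right limbs held 81.8 and 66.5 CPM of Srxn1, 76.3 and 64.3 of Gsr, 74.7 and 46.1 of Txn1, 19.9 and 17.7 of Mgst3 and 15.8 and 18.4 of Sod3. Of the 8 genes called after repeated atrophy on CPM, rescaled, with the block and without any 1 animal, Txn1, Gss, Gstz1 and Nfe2l2 were above and Mgst3, Sod3 and Sod2 below all 9 control limbs in both limbs of sham animal 3, and Gsr lay within their range in its right limb. In sham animal 1 Nfe2l2 (103 and 93.2 CPM) and Gstz1 (16.3 and 16.8 CPM) were above and Sod2 (262 and 256 CPM) below all controls in both limbs as well. These positions are on CPM. On the rescaled values Gss and Gstz1 were not above all controls in both limbs of sham animal 3, nor were Nfe2l2 and Gstz1 in sham animal 1. Other members of sham animal 3 lay on the opposite side from the repeated atrophy limbs: Txnip was at 2119 and 2205 CPM, above all controls, and Msra at 10.6 and 10.8 CPM, below them. In sham animal 1 the counts were 9 above and 1 below (16.7% and 1.14% of all rows), and in sham animal 2 they were 2 and 0 (1.52% and 0.884%). Some cell type markers also differed in these limbs. The 7 muscle fibre markers summed to 118661 and 131247 CPM in sham animal 3, below all controls, and the fibre marker Pvalb was at 471 and 372 CPM there and at 284 CPM in the right limb of atrophy animal 3, against 1413 to 4058 CPM in the other controls. In that right limb the 7 markers summed to 162364 CPM, within the range of the other controls. Its Myh1 (55060 CPM) was among the higher values of the 9 and its Ckm (19462 CPM) the lowest. The 4 endothelial markers summed to 348 and 406 CPM in sham animal 1 and 215 and 273 CPM in sham animal 3, above the 139 to 191 CPM of the controls. In sham animal 3 only Pecam1 (133 and 162 CPM) was above all controls in both limbs. Its Kdr (24.3 and 31.1 CPM) and Tek (30.4 and 33.0 CPM) lay within the control range, as did Cdh5 in the left limb. None of these markers was at 0. The red blood cell marker Slc4a1 was at 12.2 and 11.7 CPM in sham animal 1 and at most 1.86 CPM in the controls, while all 8 red blood cell markers summed to 2207 and 1601 CPM against 419.9 to 2107 CPM. Their part in the members' values was not tested.

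The left limbs of the sham rats were compared with the control limbs, which came from other rats, so that surgery and animal cannot be told apart in this comparison. No member and no row of 13822 was called by limma (0%), with 10 members and 1904 rows at an unadjusted p under 0.05, and none was called on the rescaled values (6 members and 1188 rows at an unadjusted p under 0.05). The values with the lowest p were those of Hmox1, at 1.41 ± 0.39 (adjusted p = 0.244), Gstp1, at 0.54 ± 0.15 (adjusted p = 0.251), and Srxn1, at 1.28 ± 0.40 (adjusted p = 0.277). The sham left limbs held 29.0, 13.8 and 21.7 CPM of Hmox1 and 27.6, 19.4 and 81.8 CPM of Srxn1, overlapping with the control limbs, and 117, 70.4 and 89.5 CPM of Gstp1, above all of them. The members' median log2 fold change was 0.44 against 0.17 for all rows. It was 0.22 against 0.01 on the rescaled values and 0.25 against 0.12 without sham animal 3. Without sham animal 2 it was 0.59 against 0.22, with 118 rows and no member called and 21 members at an unadjusted p under 0.05. Against the right limbs of the same sham animals, the sham left limbs had a members' median of 0.14 and a median over all rows of 0.02, with no row called (4 members and 576 rows at an unadjusted p under 0.05).

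Within animals, the left limb exceeded the right in all 3 repeated atrophy rats for Txn1 (mean log2 difference 2.38 ± 0.49 SD), Gsr (1.21 ± 0.13 SD), Gss (1.09 ± 0.21 SD), Nfe2l2 (0.98 ± 0.38 SD), Hmox1 (1.48 ± 1.14 SD) and Gpx3 (1.55 ± 0.30 SD). It was below the right in all 3 for Mgst3 (-2.37 ± 0.21 SD), Sod3 (-1.19 ± 0.08 SD) and Gstk1 (-0.98 ± 0.41 SD). In the 3 atrophy rats the difference was 0.92 ± 1.12 SD for Hmox1 and 0.53 ± 0.90 SD for Gsr, where the left limb of animal 3 was below its own right limb. The 3 sham rats had differences of 0.05 ± 0.18 SD for Gsr, with the left limb higher in 2 of 3, and 0.60 ± 0.08 SD for Txn1. The left limb was higher in all 3 sham rats for Txn1, Gss (0.15 ± 0.09 SD), Nfe2l2 (0.18 ± 0.06 SD), Hmox1 (0.36 ± 0.34 SD) and Gpx3 (0.46 ± 0.21 SD). For Mgst3, Sod3 and Gstk1 the sham differences were 0.26 ± 0.09, 0.02 ± 0.27 and 0.08 ± 0.19 SD. Other members also had 1 sign in all 3 repeated atrophy rats, such as Sod2 (-0.54 ± 0.05 SD), and no share of all rows was worked out.

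**Figure D5:**
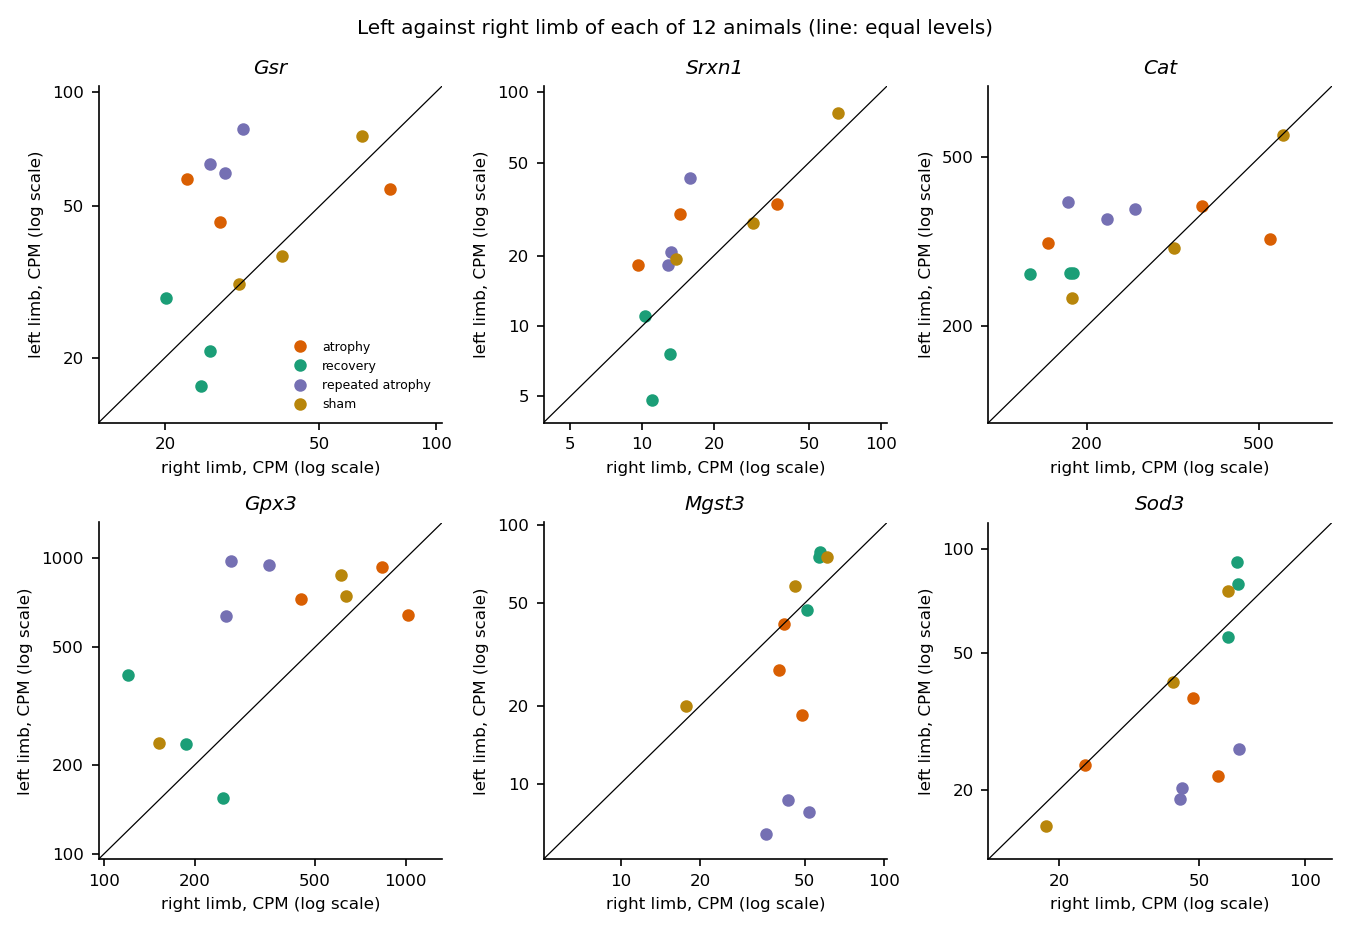
CPM of 6 genes in the left limb (vertical) against the right limb (horizontal) of each of 12 animals, on log scales, with a line of equal levels. Repeated atrophy animals lie off the line in all 6 genes, while the sham animals mostly lie closer to it, also at the high Gsr, Srxn1 and Cat and the low Mgst3 and Sod3 of sham animal 3.

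Other genes of the same pathways were taken from lists that hold none of the 40. Of 20 NRF2 partners and other targets, 10 rose and 1 fell after repeated atrophy on CPM (5 and 2 rescaled), and of 23 other glutathione and glutaredoxin genes 11 rose and 4 fell (6 and 5 rescaled). Of 15 other thiol, methionine sulfoxide and selenoprotein genes 3 rose and 2 fell (3 and 4 rescaled), with Msrb3 and Selenon not analysed here. Over all rows 28.1% rose and 6.24% fell (13.3% and 12% rescaled). The median log2 fold changes of the 3 lists were 0.59, 0.49 and 0.29 on CPM, against 0.20 for all rows, and 0.23, 0.12 and -0.03 on the rescaled values, against -0.01. Blvrb, a biliverdin reductase, went from 15.5 ± 9.48 to 54.2 ± 8.95 CPM (SD, n = 9 and 3), a log2 fold change of 1.88, and the pentose phosphate genes Taldo1 and Pgd, whose pathway makes NADPH, rose by 1.33 and 1.13. Chac2, which breaks down glutathione, Glrx3, a glutaredoxin, and Txnrd3 rose by 1.10, 1.05 and 1.38. Selenok, a selenoprotein of the endoplasmic reticulum, rose by 0.83. Gstm7 (-1.54), Glrx5 (-0.51), Selenow (-1.33) and Sesn1 (-0.84) fell. Of 3 genes of NADPH supply in mitochondria and cytosol 2 fell, Idh2 from 742 ± 181 to 229 ± 28.2 CPM (SD, n = 9 and 3), a log2 fold change of -1.66, and Nnt by 0.71. Among 7 oxidase genes 1 rose and 1 fell (0 and 1 rescaled). After atrophy 6 of the 20, 10 of the 23 and 3 of the 15 rose and 0, 0 and 1 fell on CPM, where 20.3% and 2.33% of all rows did. On the rescaled values 1 gene of each list rose and 1 fell (4.57% and 5.13% of all rows). After recovery 1, 1 and 2 rose and 1, 1 and 2 fell on CPM (4.4% and 3.33%), and 1, 2 and 2 rose and 1, 1 and 2 fell rescaled (6.16% and 5.97%). The 13 genes named here were called on both scalings and with the block, with adjusted p on CPM of at most 0.034 (Sesn1).

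Mgst2, a membrane transferase of the same family as Mgst3, moved against it. From control to repeated atrophy it went from 5.2 ± 2.76 to 81.5 ± 13.3 CPM (SD, n = 9 and 3), with no overlap, a log2 fold change of 3.85 ± 0.45 (adjusted p = 3.76e-05), with 3.50 on the rescaled values (adjusted p = 3.00e-05). Mgst3 went from 47.3 ± 7.52 to 7.59 ± 1.15 CPM (SD) over the same limbs.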

How the data were processed

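RNA-seq was measured in 24 muscle samples from 12 rats. Per the submitters' processing notes, reads were handled in Partek, with Bowtie2 2.2.5, STAR, DESeq2 and the genome build rn7 named there, and the step that divided reads among rows is not given in the sources used here. The deposited values are CPM, since each column sums to 1000000, and 3 value columns that match no sample were not used. The table has 14271 rows, of which 28 repeated another exactly and were removed, and the most abundant row stood for a symbol that had several.

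The CPM values were tested as log2(CPM + 1) with limma 3.58.1 (R 4.3.3, intensity trend), over rows above 0 in at least 3 samples, with the 4 groups of the TTX rats in 1 fit (18 samples) and sham left limbs in a fit of their own with the controls. P-values were adjusted by Benjamini-Hochberg over all rows tested. Python 3.11.15 was used for the other steps. Depth was inferred from the steps between low values, of which 87.1% to 88.6% came out whole (tolerance 0.02 reads, up to 50 reads), so reads were not recovered and no count test was run. Rescaling trimmed 30% of the log ratios and 5% of the levels at each end before the mean. Scripts were tested on simulated data.

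Groups came from the labels, which also give the animal of each limb and so the pairing. The deviations of the 2 limbs of an animal from their group means correlated at 0.0311, -0.00798 and 0.511 in the atrophy rats, 0.14, 0.0602 and -0.326 in the recovery rats, 0.305, -0.192 and 0.533 in the repeated atrophy rats and 0.763, 0.616 and 0.842 in the sham rats (10469 rows). The genes named in the text are all 40 members. From each other list, up to 3 genes a direction are named, those with the largest log2 fold change after repeated atrophy among genes called on both scalings, without overlap with control and with a mean of at least 10 CPM in either group. The members and lists were chosen with earlier results of these data known. Alternatives were other scalings, pseudocounts, filters, fold minimums and control sets, the animal as a block or random effect, summed rows and leaving out each animal with both limbs.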

Additional observations from a re-analysis of the deposited data

Results flagged for a closer look

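In the control limbs, 5 of the 40 genes had 1 limb whose gap to the nearest other limb was a large share of the range of the 9 (above Dixon's 95% critical value). That value assumes normal values, which was not tested, and genes of 1 limb are not independent. The 5 genes are therefore not set against a chance rate. In 4 of them it was the right limb of atrophy animal 3. Gsr was at 76.1 CPM there and at 31.8 CPM in the next limb. Srxn1 was at 36.8 CPM against 15.9 CPM, and Txnrd1 at 99.1 CPM against 54.3 CPM. Sod3 was at 23.7 CPM in that limb, and the next lowest control limb was at 44.1 CPM. Slc7a11 was at 0.212 CPM in the right limb of atrophy animal 2 and at 0.0363 CPM in the next, values of a few reads.

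Mgst3 differed between the 2 TTX stages by a direct test, at -1.75 on the log2 scale for repeated atrophy against atrophy. On the rescaled values the difference was -1.73 and not called (adjusted p = 0.104), and with the animal as a block it was not called either (adjusted p = 0.552).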

How the results depend on the processing

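The number of members called against control after atrophy, 12, was 6 with 12 right limbs as control, 20 without the right limb of atrophy animal 3 (an alternative chosen after seeing the data), 6 with quantile normalization, the trimmed mean or the median of ratios, and 0 with the animal as a block, on CPM or rescaled (the rescaled fit with the block was also added after seeing the data). Without 1 animal it ran from 0 (atrophy animal 1) to 19 (atrophy animal 2). After recovery the count of 7 was 4 with a pseudocount of 10, 0 with the block and 1 with rescaling and the block, and 1 to 8 without 1 animal. After repeated atrophy the count of 19 was 12 with quantile normalization or the trimmed mean, 11 with the median of ratios and 10 with rescaling and the block, and 12 to 23 without 1 animal. It was 16 with the block alone, where Txnip, Prdx3, Sod1, Nqo1 and Gstm1 were not called and Cat (adjusted p = 0.0462) and Gpx4 (adjusted p = 0.0141) were.

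Between recovery and atrophy the count of 11 was 7 with quantile normalization or the trimmed mean and 0 with the block on either scaling, and 1 to 14 without 1 animal. Between repeated atrophy and recovery the count of 17 was 1 with the block and 0 with rescaling and the block, and 7 to 20 without 1 animal. The 1 call between repeated atrophy and atrophy was 0 with only those groups fitted, a pseudocount of 10, quantile normalization, either rescaling and either fit with the block, and 0 to 1 without 1 animal. The cause of these changes was not tested. Shares of all rows are not set beside the counts of this section, so the counts do not compare the members with other rows. For sham against control no member was called under any alternative run, of which the block set sham left against sham right limbs of the same animals in place of the controls.

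Of the 67 single-gene results, 1305 of 1708 alternative values kept both direction and side of the threshold, 403 kept the direction and lost the call, and none reversed. Depth limited Slc7a11 in the control limbs, which was at 0 in 7 of the 9 and at no more than 0.212 CPM in the others, where 1 read was worth 0.0324 to 0.0530 CPM over the samples.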

Other observations

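Per length, the mean level in the control limbs ran from 0.0031 CPM per kilobase for Slc7a11 to 492 for Park7, with 204 for Sod1, 161 for Sod2 and 30.2 for Sod3. On the rescaled values, both limbs of sham animal 3 lay above all 9 control limbs in 8 members and below them in 9, where 8.73% and 9.16% of all rows did. In sham animal 1 the counts were 5 and 3 (10.4% and 4.67% of all rows), and in sham animal 2 they were 2 and 0 (1.35% and 1.31%).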
